A study of Homo sapiens with 4 samples.

Results

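The RB-E2F switch was examined through 10 genes in RNA-seq libraries of VCaP cells: the pocket protein genes RB1, RBL1 and RBL2, the transcription factor genes E2F1, E2F2, E2F3 and E2F7, the D-type cyclin gene CCND1, and the kinase genes CDK4 and CDK6. They were matched by GENCODE symbol to the Ensembl identifiers of the count tables, and all 10 were found among 60308 gene identifiers. VCaP is a human prostate cancer line that carries a TMPRSS2-ERG fusion. The cells were transfected with an siRNA against ZBTB7A (siZBTB7A) or with a non-targeting control siRNA (siNTC), both in DMEM with 10% FBS. ZBTB7A is a zinc finger transcriptional repressor, and the comparison asks which genes it regulates. Each group had 2 count tables, and the siRNA sequence and the time after transfection are not given in the sources used here.

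In the RB-E2F switch, pocket proteins bind E2F transcription factors and hold the genes of DNA synthesis silent in G1. Cyclin D with CDK4 or CDK6 begins the phosphorylation of the pocket proteins, which releases the activating E2Fs and lets the cell enter S phase. Loss of RB1 is a known event in advanced prostate cancer, and E2F1 is itself a target of E2F factors.

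The 4 tables held 5556061 and 5745862 gene reads for siZBTB7A, and 5737738 and 5927656 for siNTC. Within a group the 2 tables agreed as closely as read sampling allows, with chi-square per degree of freedom of 0.995 in siZBTB7A over 12645 genes (p = 0.659) and 0.993 in siNTC over 12762 genes (p = 0.722). They were therefore counted as 1 library per group. Values of single tables show counting noise, 95% intervals cover counting error only, and the edgeR quasi-likelihood test with Benjamini-Hochberg adjustment compares 2 libraries, not the 2 conditions. Genes are said to rise or fall where they passed that test at an adjusted p under 0.05. The targeted gene ZBTB7A had 70 and 74 reads in siZBTB7A, against 90 and 115 in siNTC, a fold of 0.743 (0.597 to 0.924) that did not pass the test (edgeR adjusted p = 0.0969). All 8 genes of a luminal prostate list, which includes ERG, were detected, with a summed 5770 to 5790 CPM in siZBTB7A and 5550 to 5590 CPM in siNTC. Most of this sum was KLK2, at 4023 CPM in siZBTB7A and 3931 CPM in siNTC. CPM is reads per 1000000 gene reads after TMM scaling. The leukocyte, endothelial and fibroblast lists summed to at most 2.38, 0.885 and 18.7 CPM in any table, and most of the fibroblast sum was LUM, at 13.0 CPM in siZBTB7A and 15.1 CPM in siNTC. The defining markers CD3E, LYZ, CDH5 and COL1A2 were at 0 reads in all 4 tables.

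Among the 10 genes, E2F1 rose and CCND1 fell in the siZBTB7A library, both by modest amounts, and the other tested members did not pass the test. E2F1 RNA stood at 1.23 times the control and CCND1 at 0.916. The 3 pocket protein genes all had point estimates below 1, between 0.863 and 0.914. CDK4, E2F2, E2F3 and E2F7 lay between 0.971 and 1.004, and CDK6 was almost absent. Of the 10 genes, 9 had enough reads to be tested, 1 was higher and 1 lower. Over all 12848 tested genes, 2.25% were higher and 2.72% lower (4.97% in either direction), and 1 gene each way out of 9 is too few to set the group apart. The median log2 fold of the 9 was -0.04, against 0.001 for all tested genes. Among other call rules, DESeq2 called 0 of the 5 members it gave an adjusted p (none for RB1, RBL1, E2F2 and E2F7) and 2.29% of 3881 genes with one, and an exact binomial test of the summed reads called 2 members and 5.16% of genes. With an assumed replicate CV of 10%, 0 members and 0.00778% of genes passed. In bulk RNA, fewer cells in one phase of the cell cycle and less RNA per cell cannot be told apart.

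The 4 tables of each gene are shown in the plot of CPM by table. The siZBTB7A and siNTC tables did not overlap for 4 of the 9 tested members (E2F1, CCND1, RB1 and RBL1). The same was true of 46.9% of all tested genes, so this separation is not particular to the members.

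**Figure D1:**
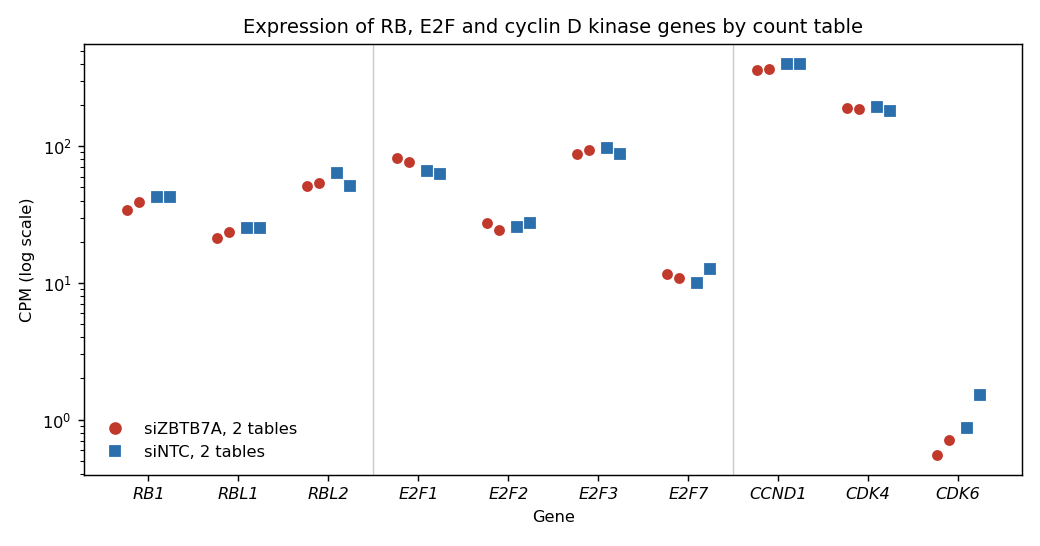
CPM (log scale) of the 10 genes in each count table, with the 2 siZBTB7A tables (circles) left of the 2 siNTC tables (squares) and vertical lines between pocket proteins, E2F factors, and cyclin D with its kinases. E2F1 lies at 76.6 and 82.1 CPM in siZBTB7A and at 63.0 and 65.5 CPM in siNTC, while CDK6 lies near 1 CPM in every table.

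The pocket proteins are close relatives that differ in their E2F partners: RB binds mainly the activating E2Fs, while p107 and p130, the products of RBL1 and RBL2, bind the repressive E2F4 and E2F5. RB1 had 34.2 and 39.1 CPM in siZBTB7A, against 42.5 and 42.5 CPM in siNTC. Both siZBTB7A tables were below both control tables. From 408 and 500 summed reads the fold was 0.863 (0.756 to 0.986), and RB1 did not pass the test over all genes (edgeR adjusted p = 0.209, unadjusted p = 0.0286). This interval places RB1 RNA in siZBTB7A at no less than 0.756 of the control within counting error.

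RBL1, an E2F-responsive gene in cycling cells, had 21.2 and 23.7 CPM in siZBTB7A and 25.4 and 25.3 CPM in siNTC. These tables did not overlap either, but with 250 and 298 reads the fold of 0.888 (0.747 to 1.05) included 1 (edgeR adjusted p = 0.498). RBL2, whose protein p130 is known for its role in quiescent cells, had 51.2 and 53.8 CPM in siZBTB7A, against 64.0 and 51.2 CPM in siNTC. The groups overlapped because the 2 control tables were apart by 1.25 times (1.07 to 1.46). RBL2 was the only member of the 10 with an interval for the ratio of 2 tables of a group that did not include 1. Its fold was 0.914 (0.817 to 1.02, edgeR adjusted p = 0.438), and its log2 fold was -0.28 without the second control table and 0.03 without the first.

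The proportions of the 3 genes were close in the 2 libraries. RB1 made up 32.8% of the reads of the 3 genes in siZBTB7A (exact Clopper-Pearson 95% interval 30.2% to 35.5%) and 33.9% in siNTC (31.5% to 36.4%). RBL1 made up 20.1% (17.9% to 22.5%) in siZBTB7A and 20.2% (18.2% to 22.4%) in siNTC. RBL2 took the remaining 47.0% (44.2% to 49.8%) in siZBTB7A and 45.9% (43.3% to 48.5%) in siNTC. These shares need no scaling between libraries, and all 3 pairs of intervals overlapped.

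The activating E2F genes are known to carry E2F sites in their own promoters, so the promoter windows of the members were searched for the 8-base words TTTGGCGC, TTTCGCGC, TTTCCCGC and TTTGCCGC on both strands. Each window runs from 250 bases before to 50 bases after a RefSeq transcript start (GRCh38.p14). Windows were found for 9 of the 10 genes, all but CCND1. At least 1 word lay in the windows of 4 of these 9 genes, against 3.99% of 27305 genes in the table. In the list of E2F target genes without the members, it was 15 of 29 genes with a window. The parts of the 4 windows that hold the words are shown for comparison, 5′ to 3′ on the strand of the gene, with the words or their reverse complements in capitals and only bases before the start:
E2F1: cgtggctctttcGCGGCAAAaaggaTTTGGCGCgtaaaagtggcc
E2F2: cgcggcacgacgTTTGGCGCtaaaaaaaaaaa
E2F3: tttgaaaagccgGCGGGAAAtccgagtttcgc
RBL1: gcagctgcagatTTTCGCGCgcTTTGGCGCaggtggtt

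The E2F1 stretch is chr20:33686386-33686430 on the minus strand and ends at the base just before the start. It holds 2 words in opposite orientations, TTTGCCGC on the other strand and TTTGGCGC on the strand of the gene. The RBL1 stretch is chr20:37095998-37096035 on the minus strand and also holds 2 words, TTTCGCGC and TTTGGCGC, both on the strand of the gene. The E2F2 stretch is chr1:23531256-23531287 on the minus strand, with TTTGGCGC. The E2F3 stretch is chr6:20401814-20401845 on the plus strand, with TTTCCCGC on the other strand. The words were not in the windows of RBL2, E2F7, CDK4 and CDK6, nor in the only window of RB1, which starts 172699 bases inside the gene and so does not cover its annotated start. A match describes letters in a window and does not show binding. Of the 4 genes with a word, E2F1 passed the test, while RBL1, E2F2 and E2F3 had folds of 0.888, 0.971 and 0.981 with intervals that included 1.

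E2F1, which encodes the best-known activating E2F, had 449 and 433 reads in the siZBTB7A tables, against 379 and 377 in the siNTC tables. On the CPM scale this was 82.1 and 76.6 in siZBTB7A and 65.5 and 63.0 in siNTC. Every siZBTB7A table stood above every control table. The fold was 1.23 (1.12 to 1.36, log2 fold 0.30, edgeR adjusted p = 0.00223). Of 2426 other genes with at least as many reads, 13 had a fold as large or larger. With 1 table left out, 2.29% to 2.81% of genes passed (2.6% without the first and 2.29% without the second siZBTB7A table, 2.81% and 2.68% without the first and second siNTC table), and the log2 fold of E2F1 was 0.25 to 0.35. E2F1 did not pass without the first siZBTB7A table (adjusted p = 0.0991) or without the second siNTC table (adjusted p = 0.0557). With correction for GC content and length its fold was 1.16 and it did not pass (edgeR adjusted p = 0.0667). DESeq2 gave an adjusted p = 0.223, and over all alternatives the adjusted p ranged from 0.00131 to 1, the highest with an assumed replicate CV of 10%.

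E2F2 and E2F3, the other activating members of the family, did not pass the test. E2F2 had 27.6 and 24.2 CPM in siZBTB7A and 25.8 and 27.6 CPM in siNTC, with overlapping tables and a fold of 0.971 (0.824 to 1.14, edgeR adjusted p = 0.899). E2F3 had 87.2 and 93.2 CPM in siZBTB7A and 96.3 and 87.9 CPM in siNTC, again overlapping, with a fold of 0.981 (0.899 to 1.07, edgeR adjusted p = 0.874). E2F7 encodes an atypical E2F that represses E2F targets without a pocket protein. It had 64 and 61 reads in siZBTB7A and 58 and 76 in siNTC. At this depth its fold of 0.987 (0.767 to 1.27) leaves changes of about the size seen in E2F1 undetectable (edgeR adjusted p = 0.974).

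Shares within the activating E2Fs need no scaling of the libraries, but they use the same reads as the folds above. They are not corrected for GC content or length, and the transcripts of E2F1, E2F2 and E2F3 have 62.5%, 57.5% and 45.2% GC. E2F1 made up 40.6% of the reads of E2F1, E2F2 and E2F3 in siZBTB7A (38.5% to 42.7%), from 882 of 2174 reads. In siNTC it made up 35.1% (33.1% to 37.2%), from 756 of 2153 reads. The intervals did not overlap, and the tables gave 41.7% and 39.5% in siZBTB7A against 34.9% and 35.3% in siNTC. E2F3 made up 46.2% (44.1% to 48.3%) in siZBTB7A and 50.3% (48.2% to 52.4%) in siNTC, with intervals that just overlapped. E2F2 made up 13.2% (11.8% to 14.8%) in siZBTB7A and 14.6% (13.1% to 16.2%) in siNTC. Shares within a family depend on each other, since a higher share of any gene lowers the rest. Overlap of separate intervals is not a test of a difference.

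**Figure D2:**
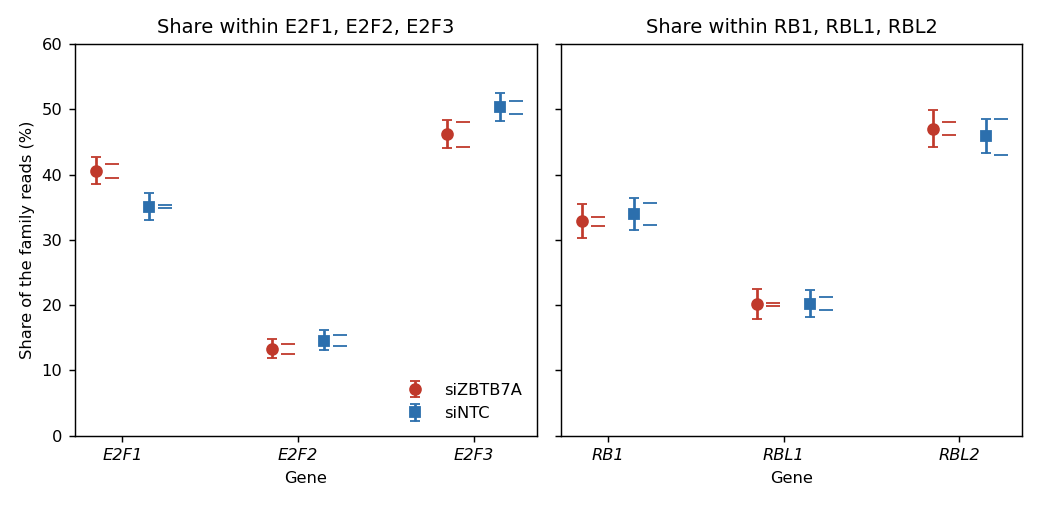
Share of the summed reads of E2F1, E2F2 and E2F3 (left) and of RB1, RBL1 and RBL2 (right) taken by each gene, in percent, with exact 95% counting intervals, siZBTB7A (circles) left of siNTC (squares) and short dashes for single tables. E2F1 took 40.6% in siZBTB7A and 35.1% in siNTC, while the 3 pocket protein shares overlapped between the libraries.

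Read ratios were computed for 7 pairs of members that were picked after their values were seen, so they describe the libraries and are no separate evidence of the change in E2F1. There were 2.16 E2F1 reads per RB1 read in siZBTB7A and 1.51 in siNTC, a ratio of ratios of 1.43 with an exact conditional 95% interval of 1.21 to 1.69. Against RBL1 it was 1.39 (1.14 to 1.70) and against RBL2 1.35 (1.16 to 1.57). Against E2F2 and E2F3 it was 1.27 (1.05 to 1.54) and 1.26 (1.10 to 1.44). For CCND1 it was 0.912 (0.847 to 0.982) against CDK4 and 1.06 (0.922 to 1.22) against RB1. A ratio does not show which of a pair changed.

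CCND1, which encodes cyclin D1, the regulatory partner of CDK4 and CDK6, fell by a small and precisely counted amount. It had 362 and 369 CPM in siZBTB7A, against 396 and 402 CPM in siNTC. Both siZBTB7A tables were below both control tables, and the 2 tables of a group lay close together. From 4064 and 4696 reads the fold was 0.916 (0.878 to 0.955, log2 fold -0.13, edgeR adjusted p = 0.00261). It did not pass without the first siZBTB7A table (adjusted p = 0.0787) or the second siNTC table (adjusted p = 0.0728), nor with DESeq2 (adjusted p = 0.241). Over all alternatives its adjusted p ranged from 0.00158 to 1, the highest with the assumed replicate CV of 10%, and the log2 fold stayed between -0.14 and -0.11.

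CDK4, the kinase partner expressed in these cells, had 189 and 188 CPM in siZBTB7A and 194 and 182 CPM in siNTC. The tables overlapped, and the fold was 1.004 (0.946 to 1.07, edgeR adjusted p = 0.964), which limits any difference between the libraries to about 7% within counting error. CCND1 reads per CDK4 read were 1.94 in siZBTB7A and 2.12 in siNTC. CDK6, the second D-cyclin kinase, had 3 and 4 reads in siZBTB7A and 5 and 9 in siNTC, too few to be tested. CDK6 made up 0.333% of the reads of the 2 kinase genes in siZBTB7A (0.134% to 0.684%) and 0.629% in siNTC (0.345% to 1.05%), with overlapping intervals. Of the other D-type cyclin genes, CCND3 had 167 reads in siZBTB7A and 146 in siNTC, a fold of 1.21 (0.964 to 1.52) that did not pass (edgeR adjusted p = 0.379). CCND2 had 0 reads in siZBTB7A and 4 in siNTC.

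**Figure D3:**
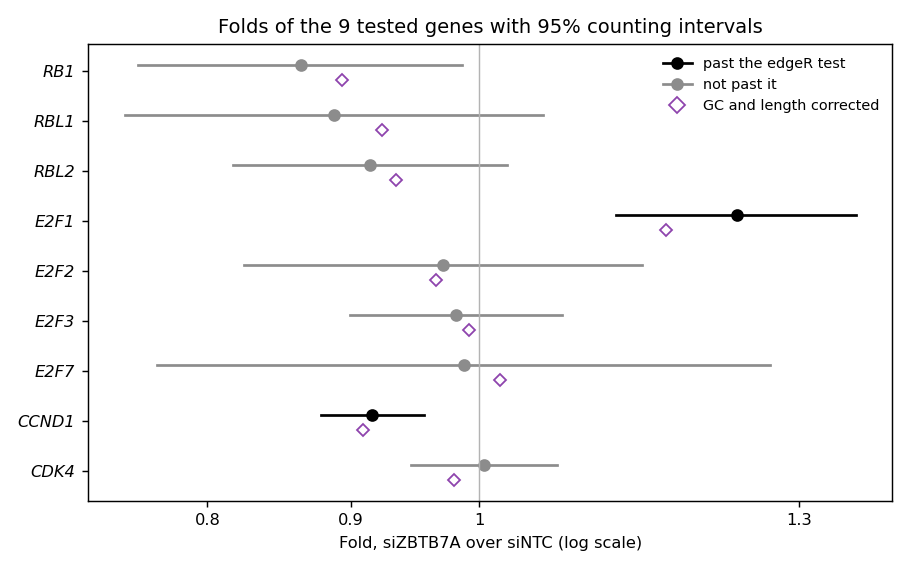
Fold of the 9 tested genes, siZBTB7A over siNTC (log scale), with exact 95% counting intervals, black where the gene passed the edgeR test and grey where it did not. Open diamonds give the fold after correction for transcript GC content and length. E2F1 at 1.23 and CCND1 at 0.916 are the 2 genes past the test, and the corrected E2F1 fold is 1.16.

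Levels between genes were compared per kilobase of the longest annotated transcript. CDK4 and CCND1 were the most abundant, at 90.8 and 84.9 CPM per kb in siZBTB7A and 90.5 and 92.7 in siNTC, and their intervals overlapped each other in both libraries. E2F1 followed at 31.7 CPM per kb in siZBTB7A and 25.7 in siNTC, and E2F3 at 19.0 and 19.4. The pocket protein genes lay below these, with RBL2 at 10.7 CPM per kb in siZBTB7A and 11.7 in siNTC and RB1 at 7.66 and 8.87. E2F2 and RBL1 stood at 4.99 (4.43 to 5.6) and 3.96 (3.48 to 4.48) in siZBTB7A and at 5.14 and 4.46 in siNTC. Their separate intervals overlapped in both libraries, and the difference between these genes was not tested. E2F7 stood at 1.96 in siZBTB7A and 1.98 in siNTC. CDK6 was lowest, at 0.0542 and 0.102. With the union of exons as length, CCND1 stood above CDK4 in both libraries, at 75.7 and 59.5 CPM per kb in siZBTB7A and 82.6 and 59.3 in siNTC. The rest of the order was the same in both, and RB1 and E2F2 then overlapped in siZBTB7A.

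The folds of the members were set beside the GC content of their transcripts, since GC content moved with the fold across all genes. The median GC content of the longest transcript was 54.2% among the genes that rose, 41.6% among those that fell and 48.0% among all tested genes. E2F1, the member with the highest fold, had the most GC-rich transcript of the 10, at 62.5%, above all but 7.98% of tested genes. The 3 pocket protein genes had 37.3% (RB1), 40.0% (RBL1) and 43.2% (RBL2), all below the median. The 687 other genes within 2 percentage points of E2F1 and with a mean of at least 10 CPM had a median log2 fold of 0.07, against 0.30 for E2F1. The 1132 such genes around RB1 had a median log2 fold of -0.05, against -0.21 for RB1. With the folds of all genes corrected with splines for GC content and for length, E2F1 no longer passed. RB1, RBL1 and RBL2 then stood at 0.893, 0.923 and 0.934. CCND1, with 50.3% GC, stood at 0.909 and still passed (edgeR adjusted p = 0.00158). The correction called 2.83% of all tested genes, 1.56% higher and 1.27% lower.

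**Figure D4:**
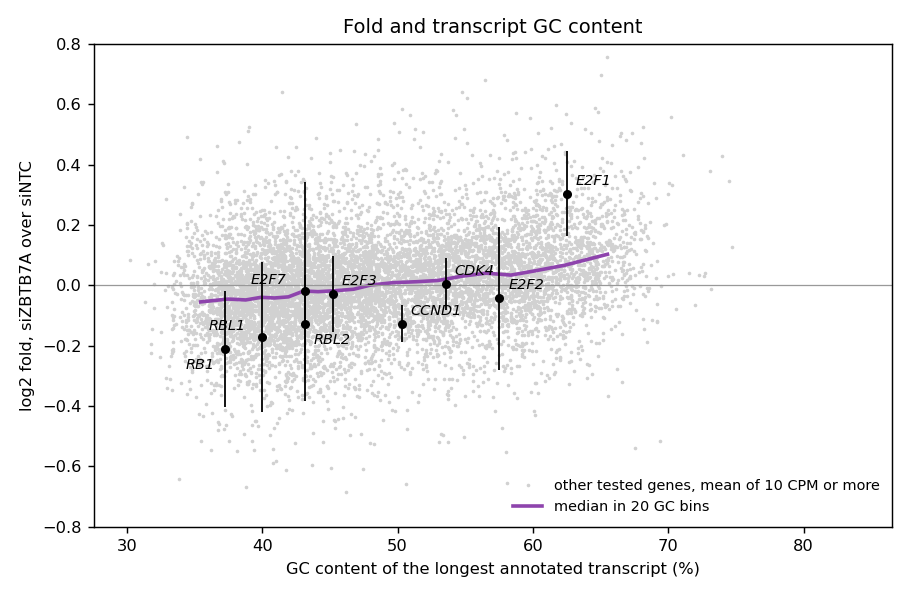
Log2 fold, siZBTB7A over siNTC, against the GC content of the longest annotated transcript in percent, for 8997 tested genes with a mean of 10 CPM or more (grey, 7 beyond the axis) with their median in 20 GC bins (line), and for the 9 tested members (black, 95% counting intervals). E2F1 lies at 62.5% GC and 0.30, above the line, and CCND1 at 50.3% GC and -0.13, below it.

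Reads that matched no annotated exon of a gene on the main strand made up 23.1% and 23.2% of all reads in siZBTB7A and 20.6% in both siNTC tables. Such reads can lie inside genes, as in introns, and where they lay was not examined. Multimapping reads made up 22.3% and 22.2% in siZBTB7A and 24.5% and 24.4% in siNTC. The part of both kinds of reads in the folds was not tested. Mitochondrial genes took a larger share of gene reads in siZBTB7A (20.2% in both tables) than in siNTC (17.1% in both tables). With these genes left out of the library sizes, the log2 folds of E2F1 and CCND1 were 0.30 and -0.13, as before.

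Further genes of the pathway were taken from 8 lists, whose counts stand against 2.25% of all tested genes higher and 2.72% lower. Among the other E2F factors and their dimer partners, 1 of 6 tested genes rose and 0 fell, with a median fold of 1.06. The one that rose was TFDP1, which encodes DP1, the partner with which E2F1 binds DNA. TFDP1 had 511 reads in siZBTB7A and 443 in siNTC, a fold of 1.22 (1.07 to 1.39, edgeR adjusted p = 0.0478). With the GC and length correction its fold was 1.20 (adjusted p = 0.10), and DESeq2 gave no adjusted p for any of the 6 genes.

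Among the genes of the cyclin E and cyclin A axis, 1 of 8 fell and 0 rose, with a median fold of 0.956. SKP2, which encodes a ubiquitin ligase subunit that directs p27 to degradation, had 700 reads in siZBTB7A and 872 in siNTC, a fold of 0.849 (0.768 to 0.939, edgeR adjusted p = 0.037). With the GC and length correction SKP2 stood at 0.862 (adjusted p = 0.0934), and DESeq2 called 0 of the 8 genes (no adjusted p for 3). Among 8 genes of the DREAM and MuvB complexes, which repress or activate cell cycle genes with p130 or with MYBL2 and FOXM1, 1 rose and 0 fell, with a median fold of 1.07. FOXM1, a transcription factor of G2 and mitosis, had 1245 reads in siZBTB7A and 1149 in siNTC, a fold of 1.15 (1.06 to 1.24, edgeR adjusted p = 0.0249). Its corrected fold was 1.12 (adjusted p = 0.095), and DESeq2 called 0 of these 8 genes (no adjusted p for 4). After the correction the only gene of this list past the test was DYRK1A, the gene of a kinase that promotes DREAM assembly, with a fold of 0.992 before and 1.09 after it (adjusted p = 0.0382).

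Genes that E2F factors activate at the start of S phase form the longest list. Of 35 tested E2F targets outside the members, 0 passed in either direction by edgeR, 0 by DESeq2 and 0 by the exact binomial test. At an unadjusted edgeR p under 0.05 there were 5, of which 1 was higher and 4 lower. Of all 12848 tested genes, 2303 had an unadjusted p that low, 1159 higher and 1144 lower. With 4.97% of all tested genes called, a count of 0 in a list of this size is near the background. DESeq2 gave no adjusted p for 15 of the 35. Their folds ran from 0.794 to 1.13 with a median of 0.998, against 1.001 for all tested genes. Some were counted deeply, such as PCNA, the sliding clamp of DNA replication, named after its values were seen. PCNA had 2376 reads in siZBTB7A and 2728 in siNTC, a fold of 0.922 (0.872 to 0.974, edgeR adjusted p = 0.0631).

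Regulators that act on cyclin D kinases are the CDK inhibitors and the partners of the complex. Of 6 tested CDK inhibitor genes, 0 passed by edgeR, 0 by DESeq2 (no adjusted p for 5) and 0 by the exact binomial test, and 1 had an unadjusted p under 0.05. That gene was CDKN2C, which encodes p18, an inhibitor specific to CDK4 and CDK6. It had 267 reads in siZBTB7A and 355 in siNTC, a fold of 0.796 (0.677 to 0.936, edgeR adjusted p = 0.0783). With the GC and length correction its adjusted p was 0.0522. The median fold of the list was 0.982. An unadjusted p under 0.05 was met by 2303 of all 12848 tested genes. CDKN1B, which encodes p27, had a fold of 0.97 (0.866 to 1.09, edgeR adjusted p = 0.841) and CDKN1A, which encodes p21, a fold of 0.913 (0.789 to 1.06, edgeR adjusted p = 0.562). Of 6 tested D cyclin partners, 0 passed by edgeR, 0 by DESeq2 (no adjusted p for 5) and 0 by the exact binomial test, with 1 at an unadjusted p under 0.05 and a median fold of 1.03. CDC37, a kinase co-chaperone that loads CDK4 onto HSP90, had a fold of 0.936 (0.835 to 1.05), and CDK5, a kinase known best from neurons, one of 1.20 (1.02 to 1.42, edgeR adjusted p = 0.219).

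Of 10 genes for corepressors that RB recruits, 0 passed by edgeR and 0 by the exact binomial test. DESeq2 called 0 of them (no adjusted p for 3). At an unadjusted p under 0.05 there were 3, against 2303 of all 12848 tested genes, and the median fold of the list was 1.02. HDAC1, a histone deacetylase gene, had a fold of 0.983 (0.914 to 1.06), and KDM5A, a histone demethylase gene, one of 0.92 (0.849 to 0.996, edgeR adjusted p = 0.254). Of 8 mitosis markers, 2 fell and 0 rose, with a median fold of 0.945. TOP2A, which encodes topoisomerase II alpha, had a fold of 0.888 (0.860 to 0.916, edgeR adjusted p = 1.17e-08), and MKI67, the gene of the Ki-67 antigen, one of 0.895 (0.837 to 0.958, edgeR adjusted p = 0.0311). With the GC and length correction TOP2A stood at 0.926 and still passed, while MKI67 stood at 0.946 and did not (adjusted p = 0.448). DESeq2 called 1 of the 8 genes, TOP2A.

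**Figure D5:**
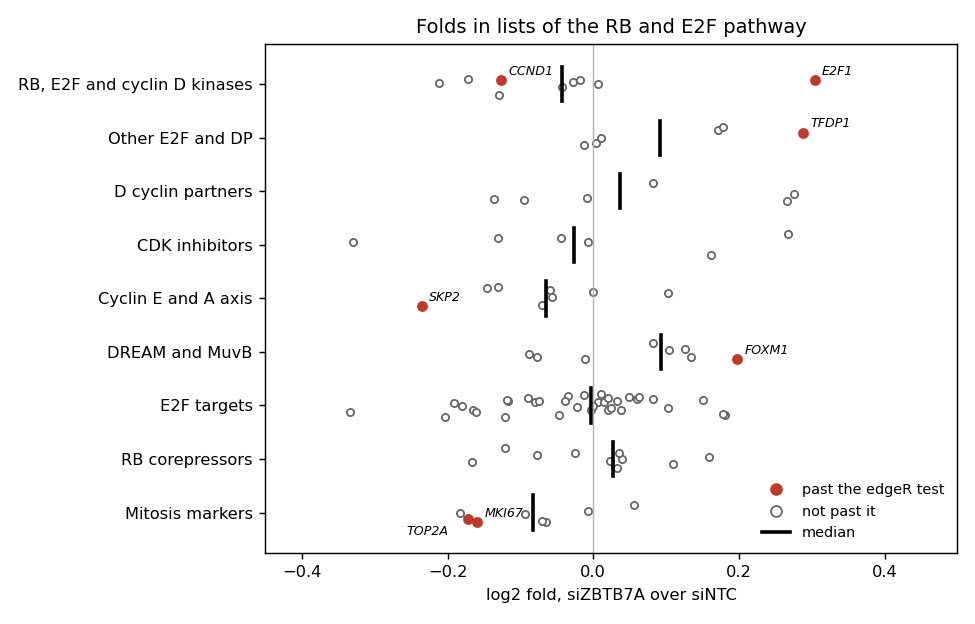
Log2 fold, siZBTB7A over siNTC, of each tested gene in the member set and 8 lists of the pathway, with genes past the edgeR test filled and named and the list median as a vertical bar. E2F targets are shown without the members and have no gene past the test, while E2F1, TFDP1 and FOXM1 lie to the right and SKP2, CCND1, TOP2A and MKI67 to the left.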

How the data were processed

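The deposited tables held raw read counts per gene, unstranded and for either strand, in the layout of STAR gene counts. Per the submitters' processing notes, STAR 2.4.2a and hg19 (GRCh37) were used, and the labels' protocols name a stranded total RNA kit. No source used here names the annotation release. Counts of the main strand were used, which exceeded those of the other strand by 24.9 to 25.5 times. Rows that name no gene held 50.8% to 51.2% of reads and were left out. Reads that map to several places or overlap 2 genes are not in the gene counts of this layout. Gene symbols, transcript length and GC content came from GENCODE 29, on another build, matched by Ensembl identifier without version (55698 of 60308 named).

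The test was edgeR 4.0.16 in R 4.3.3 (quasi-likelihood, robust, TMM, filterByExpr, group only) over 12848 genes, with an adjusted p under 0.05. On data simulated with the replicate CV of 0.988% that edgeR estimated, it called 34 of 50 genes with a fold of 1.25. It called 29 of 50 with a fold of 0.8 and all 50 with a fold of 1.5 or 2, with 9 false calls over 12672 genes. This simulation holds no spread between cultures, and its changed genes came only from genes above a minimum read count. Recovery among genes with fewer reads was not measured. Folds come from summed tables with exact Clopper-Pearson 95% intervals. The alternatives were DESeq2 1.42.0 and its size factors, an exact binomial test, other filters, unstranded counts, the replicate block, mitochondrial genes left out, a spline on GC content and length (4 degrees of freedom each, 99.5% of genes with a value), an assumed replicate CV of 10%, and each table left out. No label says whether replicates came from separate cultures. The members, lists, tests and alternatives were chosen with earlier results of these data known. The genes named were all members, ZBTB7A, and in each list up to 4 genes past the test or, where there was none, the 2 with the most CPM. In the full E2F target list, the gene past the test was the member E2F1. CCND2, CCND3, CDKN2C, DYRK1A and PCNA were named after their values were seen. Intervals were computed with scipy 1.17.1 under Python 3.11.15.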

Additional observations from a re-analysis of the deposited data

How the results depend on the processing

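The count of 639 genes past the test became 89 with DESeq2 (87 of them shared), 363 with the GC and length correction (300 shared), 1 with an assumed replicate CV of 10%, and 303 to 373 with 1 table left out. The other 7 alternatives gave 502 to 663. The 2 members past the test, E2F1 and CCND1, became 0 with DESeq2, 1 (CCND1) with the GC and length correction, 0 with the assumed CV and 0 to 2 with 1 table left out. The median log2 fold of the members was -0.043, and it was -0.051 with the correction and -0.094 to -0.078 with 1 table left out. Fewer reads remain when a table is left out, and the assumed CV exceeds the replicate CV of 0.988% that edgeR estimated. The cause of the changed counts was not tested for DESeq2 or for any other alternative. E2F1 stayed above 1 and RB1, RBL1 and CCND1 below 1 in all 14 alternatives. These are the members whose tables did not overlap between groups, and the alternatives reuse the same reads. The steady direction is therefore no separate evidence of a change. RB1 made up 36.7% of pocket protein reads in siNTC with unstranded counts, against 33.9% on the main strand. Same-numbered tables deviated with a correlation of -0.0151 over 5461 genes, and the replicate block gave 654 genes and again E2F1 and CCND1 among the members. ZBTB7A passed in none of the alternatives that gave it an adjusted p (DESeq2 gave none). With 1 library per group, spread between cultures was not measured.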

Other observations

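Some of these genes lost reads when strand was ignored. For CDK4, unstranded counting kept 58.1% of the main-strand reads in siZBTB7A and 59.9% in siNTC. TSPAN31 and MARCH9 overlap CDK4 on the opposite strand in GENCODE 29, and reads that fall in 2 genes are not assigned when strand is ignored. For CCND1, which LTO1 overlaps on the opposite strand, 91.4% were kept in siZBTB7A and 91.7% in siNTC. For RBL2, overlapped by AKTIP, 89.4% and 87.3% were kept. The overlaps given here are of whole gene spans, and whether exons overlap was not examined. RB1, whose span is overlapped by LPAR6 and RCBTB2 on the opposite strand, kept 100% in both libraries. RBL1, whose opposite-strand neighbours had 0 to 3 reads in each table, kept 92.8% in siZBTB7A and 91.3% in siNTC. What caused the losses was not tested. The log2 fold of CDK4 was 0.01 on the main strand and -0.04 without strand, and neither passed the test.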
